A study of Mus musculus with 2 samples.

Results

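The netrin guidance system was described here by 10 genes: the ligands Ntn1, Ntn3, Ntn4 and Draxin, the receptors Dcc and Neo1, and the receptors Unc5a, Unc5b, Unc5c and Unc5d. They were chosen by gene symbol among 43346 genes measured, with no filter on level but with earlier results of these data known. The samples were 1 group, neural tube dissected from B6NCrl mouse embryos at 11.5 days of development, and no treatment, mutation or other age was compared. Replicate 1 pooled tissue of 109 embryos and replicate 2 pooled tissue of 88, with males and females mixed in both. RNA above 200 bases was kept, 10 ng went into each library, and spike-in RNAs were included. The labels number the pools as biological replicates, so differences between them combine embryos, dissection and library preparation.

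Netrins are secreted, laminin-related proteins that steer growing axons. In the embryonic spinal cord, Ntn1 is made by the floor plate at the ventral midline and by neural progenitors, and commissural axons grow ventrally in response to it. Dcc, and its relative Neo1, are transmembrane receptors that mediate attraction, while the Unc5 proteins mediate repulsion, alone or together with Dcc. Draxin is a secreted protein of the dorsal neural tube and roof plate that binds Dcc and Ntn1. Dcc, Neo1 and the Unc5 proteins are also known as dependence receptors, which can signal cell death when no ligand is bound.

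The dissected tissue held neural and other cells. Libraries contained 27638068 and 29166901 expected counts, that is, reads assigned by estimation to genes, spike-ins and other entries. All members of the neural progenitor (6 of 6), postmitotic neuron (6 of 6), floor plate (5 of 5), commissural neuron (7 of 7) and motor neuron (6 of 6) marker lists were detected, meaning that they reached at least 1 TPM in both libraries. TPM is a length-corrected share of all transcripts, scaled to a common total. Of the roof plate markers, 4 of 5 were detected. Mesenchyme (6 of 6), skeletal muscle (6 of 6), endothelium (7 of 7), macrophage (5 of 5), erythroid (5 of 5), surface ectoderm (4 of 4) and neural crest and sensory ganglion (5 of 6) markers were detected too. In such bulk RNA, fewer cells of a type and less RNA per cell cannot be told apart, and the cells that made each transcript were not identified.

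Within these 10 genes, the receptors were higher in sum than the ligands, and Dcc and Neo1 were higher than the Unc5 receptors. Dcc and Neo1 were the highest of the 10 genes, at 35.1 and 33.0 TPM on average, followed by Unc5c at 13.0 TPM. Ntn1 and Draxin lay at 8.3 and 8.0 TPM, and Unc5d was the lowest at 0.785 TPM. Of the 10 genes, 9 were detected, all but Unc5d, where 59.9% of 21475 protein-coding genes and 33.0% of all genes were. The median over the 10 genes was 6.79 TPM, and the median over all protein-coding genes was 4.395 TPM, or 19.9 TPM over those detected. Mean levels spanned 44.7-fold from Dcc to Unc5d. In descending order the genes were Dcc, Neo1, Unc5c, Ntn1, Draxin, Unc5a, Ntn3, Unc5b, Ntn4 and Unc5d. Of the 9 neighbouring pairs in that order, 2 had overlapping ranges, namely Dcc with Neo1 and Ntn1 with Draxin. The other 7 pairs differed by 1.43-fold (Draxin over Unc5a) to 2.54-fold (Neo1 over Unc5c) without overlap, which with 2 values each is a description. Over transcripts of at least 1000 bases, Ntn4 stood at 0.52 and 0.95 TPM and Unc5d at 0.70 and 0.87 TPM. Those ranges overlap, so the order of Ntn4 and Unc5d, and which gene is lowest, depends on short transcripts.

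**Figure D1:**
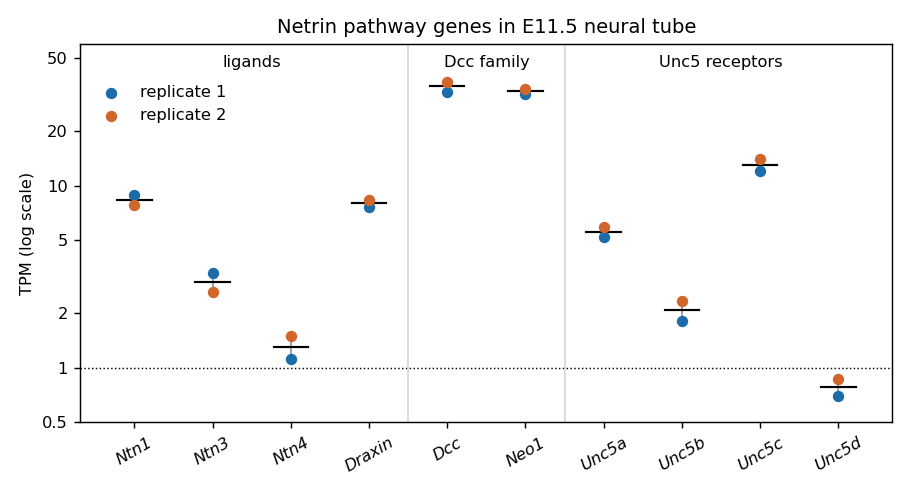
Level of each of the 10 genes in TPM on a log axis, with 1 point per library and a bar at the mean of the 2 libraries; the dotted line marks 1 TPM. Dcc and Neo1 lie above 32 TPM in both libraries, Unc5c is the highest Unc5 gene, and Unc5d lies below the line in both.

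Among the ligands, Ntn1 (ENSMUSG00000020902.8, chr11:68209364-68400823, minus strand, GRCm38), the prototype netrin, was measured at 8.84 TPM in replicate 1 and 7.84 in replicate 2, from 740 and 699 expected counts. Its mean was 8.34 ± 0.71 TPM (SD, n = 2), at percentile 57.0 of protein-coding genes. Ntn3 (ENSMUSG00000079662.1, chr17:24203848-24209531, minus strand), the netrin closest to Ntn1, stood at 3.33 and 2.60 TPM from 278 and 224 counts. Replicate 1 was thus the higher pool for both of these genes. Ntn4 (ENSMUSG00000020019.4, chr10:93640681-93747207, plus strand), a more distant netrin found in basement membranes, stood at 1.12 and 1.49 TPM. These Ntn4 values rested on 37 and 65 counts, the fewest of the 10 genes, and replicate 2 was the higher pool.

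Among Ntn1, Ntn3 and Ntn4, Ntn1 supplied most of the RNA. It made up 66.5% and 65.7% of their summed TPM (66.1% ± 0.565), Ntn3 25.1% and 21.8%, and Ntn4 8.43% and 12.5%. The netrin relatives Ntn5, Ntng1 and Ntng2, with means of 0.985, 5.41 and 2.735 TPM, are not part of this sum. On the log2 scale, the level of Ntn1 exceeded the sum of Ntn3 and Ntn4 by 0.99 in replicate 1 and 0.939 in replicate 2, a mean of 0.96 ± 0.036 or 1.95-fold. Both pools therefore gave nearly the same proportion, although the netrin sum itself was 13.3 TPM in replicate 1 and 11.9 TPM in replicate 2. Part of the Ntn3 signal may be shared: 89 exonic bases (1.77%) overlap Tbc1d24 on the same strand and 139 (2.76%) overlap BC028777 on the opposite strand.

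Draxin (ENSMUSG00000029005.4, chr4:148098437-148130698, minus strand) stood at 7.64 and 8.35 TPM, from 678 and 765 counts, a mean of 8.0 ± 0.50 TPM. Its level matched that of Ntn1 within the spread of the pools. Draxin was below Ntn1 in replicate 1 (log2 ratio of levels -0.21) and above it in replicate 2 (0.091), so no order between them can be given. Without transcripts under 1000 bases, which take part of the Ntn1 level, Draxin was above Ntn1 in both pools (0.064 and 0.309, mean 0.186), so the order depends on how these transcripts are counted. The floor plate markers, from a source of Ntn1, summed to 60.5 and 71.0 TPM, most of it Spon1 at 58.0 ± 7.8 TPM, which is not confined to the floor plate. The roof plate markers summed to 16.8 and 19.2 TPM, led by Wnt1 at 9.69 ± 0.75 TPM. All other detected markers of these lists were below 4 TPM, and whether they track Ntn1 or Draxin was not tested.

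Dcc (ENSMUSG00000060534.11, chr18:71253634-72351069, minus strand) is the main receptor for attraction to Ntn1 on commissural axons and spans 1097 kb of the genome. It stood at 32.9 TPM in replicate 1 and 37.3 TPM in replicate 2, from 2859 and 3357 counts, a mean of 35.1 ± 3.1 TPM and percentile 79.5 of protein-coding genes. Neo1 (ENSMUSG00000032340.7, chr9:58874687-59036441, minus strand), which binds netrins and, more tightly, repulsive guidance molecules, stood at 32.0 and 34.0 TPM. Its counts, 4062 and 4448, were the highest of the 10 genes, and its mean was 33.0 ± 1.4 TPM at percentile 78.6. Dcc exceeded Neo1 within each library, by 0.037 and 0.133 on the log2 scale of levels, a mean of 0.085 ± 0.068 or 1.06-fold. The difference was thus close to its own spread, and the levels of the 2 genes could not be separated. The length behind each value matters here: the files carry the leading Dcc transcript at 5219 bases, whereas GENCODE M21 lists it at 10323 bases, and the effect of that length on the Dcc level was not tested.

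The Unc5 receptors together reached 19.7 and 23.1 TPM, against 64.9 and 71.3 TPM for Dcc plus Neo1. On the log2 scale the Unc5 sum lay below the sum of Dcc and Neo1 in both pools (-1.719 and -1.623, mean -1.67 ± 0.068), so Dcc plus Neo1 were 3.18-fold higher. All 6 receptors summed to 84.6 and 94.4 TPM, while the 3 netrins summed to 13.3 and 11.9 TPM. These are RNA levels per length and do not measure protein at the cell surface.

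Unc5c (ENSMUSG00000059921.11, chr3:141465216-141834924, plus strand), the member mutated in the rostral cerebellar malformation mouse, led the family at 12.0 and 14.0 TPM, from 1639 and 1646 counts. It held 60.8% and 60.5% of the family's TPM. Unc5a (ENSMUSG00000025876.11, chr13:54949411-55006018, plus strand), a receptor of developing spinal cord neurons, came next at 5.22 and 5.96 TPM, from 342 and 401 counts, or 26.5% and 25.8% of the family. Unc5c exceeded Unc5a by 1.2 and 1.231 on the log2 scale of levels, a mean of 1.22 ± 0.022 or 2.32-fold. Over transcripts of at least 1000 bases it exceeded Unc5a by 1.171 and 0.989, so Unc5c stayed the higher gene but the closeness of the pools rested on short transcripts.

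Unc5b (ENSMUSG00000020099.7, chr10:60762593-60831581, minus strand), known from tip cells of growing blood vessels as well as from neurons, stood at 1.81 and 2.32 TPM, from 181 and 240 counts. It held 9.18% and 10.0% of the Unc5 TPM. Endothelial markers were present throughout, 7 of 7 detected with summed levels of 125 and 129 TPM, Cldn5 the highest at 28.7 TPM, and their part in the Unc5b level was not tested. Unc5d (ENSMUSG00000063626.5, chr8:28646717-29219636, minus strand), a receptor best known from migrating cortical neurons, stood at 0.70 and 0.87 TPM. Its 107 and 138 counts put it above 0 in both pools but under 1 TPM, with 3.55% and 3.76% of the family. The shares of all 4 genes moved by less than 1 percentage point between the pools, but this closeness rested on a short Unc5c transcript of few counts. Over transcripts of at least 1000 bases the Unc5c share was 60.3% in replicate 1 and 56.4% in replicate 2, and that of Unc5a 26.8% and 28.4%.

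Estimated transcripts added a further layer for the 5 genes with several transcripts in the files, Ntn1, Ntn4, Dcc, Unc5a and Unc5c. The other 5 genes had 1 transcript each, so nothing can be said of their splicing. The leading transcript was the same in both pools for 4 of the 5 genes, where it was for 89.8% of 10005 genes with several transcripts and a mean of at least 1 TPM. The exception was Ntn4.

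**Figure D2:**
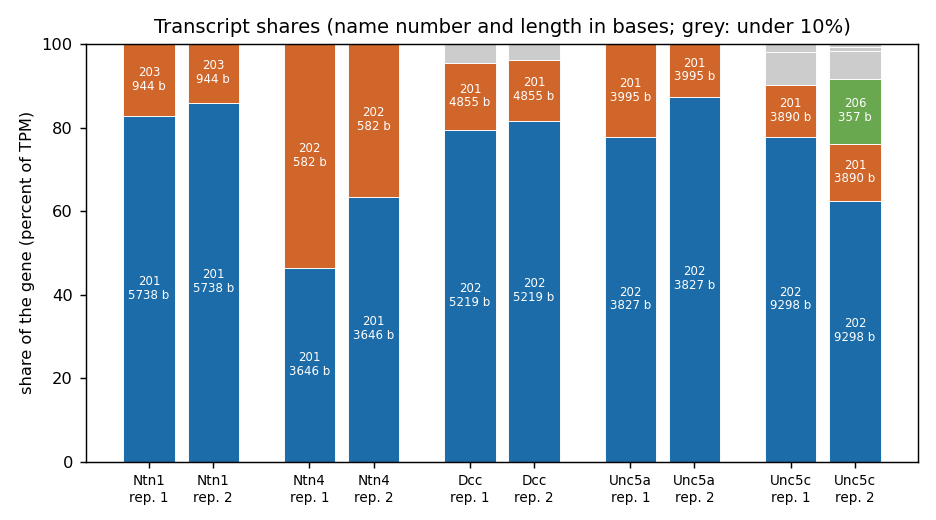
Share of each transcript in the TPM of its gene, in percent, for the 5 genes with several transcripts in the files and for each library; labels give the transcript number and its length in bases, and grey marks transcripts under 10%. Ntn4 changes its leading transcript between the libraries, and the 357-base Unc5c transcript has a share above 0 in replicate 2 alone by this estimate.

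Short transcripts carried several of the differences. Full-length Ntn4-201 (3646 bases) held 46.4% of Ntn4 TPM in replicate 1 and 63.5% in replicate 2, on 32.0 and 60.3 counts. The 582-base Ntn4-202 held the rest, 53.6% and 36.5%, on only 5.03 and 4.73 counts. Over transcripts of at least 1000 bases Ntn4 stood at 0.52 and 0.95 TPM, below the threshold for detection. For Ntn1, the 944-base Ntn1-203 held 17.3% and 14.1% of TPM on 22.4 and 16.7 counts, and the 5738-base Ntn1-201 held 82.7% and 85.9%. For Unc5c, the 357-base processed transcript Unc5c-206 held 0% in replicate 1 and 15.6% in replicate 2, on 0 and 10.1 counts. The posterior mean, a second estimate in the same files, gave it 7.5% and 18.99%, so it was not at 0 in replicate 1 by both estimates. Those 10.1 counts gave 2.19 TPM, and over transcripts of at least 1000 bases Unc5c stood at 11.75 and 11.81 TPM, practically equal. The higher Unc5c TPM of replicate 2 was therefore carried by this transcript.

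Unc5a had the splicing contrast with the fewest differing exons. Its 2 transcripts with counts above 0 differ by a single cassette exon, exon 6 of 16. It lies at chr13:54997193-54997360 on the plus strand (GRCm38) and is coding, 168 bases long and a multiple of 3. The exon encodes a thrombospondin type 1 repeat of the extracellular region, the part of the receptor outside the cell next to its immunoglobulin domains. Unc5a-201, with the exon, held 22.4% of Unc5a TPM in replicate 1 and 12.7% in replicate 2 (17.5% ± 6.9), on 79.1 and 52.8 counts. Unc5a-202, without it, held 77.6% and 87.3%, on 263 and 348 counts. The transcript that skips the exon thus led in both pools, and the share of the other was lower in replicate 2. By the posterior mean, Unc5a-202 held 67.3% and 71.7% and Unc5a-201 20.75% and 14.1%. The rest went to 3 short transcripts that had 0 counts. The counts are estimates: reads outside the exon and its junctions are split by the model.

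The same exon exists in all 4 Unc5 genes, as exon 6 and at 168 bases in each. It is in 1 of 2 full-length coding transcripts of Unc5a in the files, in all 3 of Unc5c, and in the only one of Unc5b and of Unc5d, so skipping could be read for Unc5a alone. The exons are shown 5′ to 3′ in transcript orientation, from the GENCODE M21 transcripts on GRCm38, because they are the segment on which the Unc5a transcripts differ; capitals mark bases that differ from Unc5a. The Unc5b exon lies at chr10:60778168-60778335 (minus strand), the Unc5c exon at chr3:141768444-141768611 (plus strand) and the Unc5d exon at chr8:28760725-28760892 (minus strand).
Unc5a exon 6: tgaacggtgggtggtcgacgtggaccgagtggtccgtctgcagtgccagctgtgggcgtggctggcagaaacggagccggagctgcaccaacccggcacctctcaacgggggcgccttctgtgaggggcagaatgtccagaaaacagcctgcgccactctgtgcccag
Unc5b exon 6: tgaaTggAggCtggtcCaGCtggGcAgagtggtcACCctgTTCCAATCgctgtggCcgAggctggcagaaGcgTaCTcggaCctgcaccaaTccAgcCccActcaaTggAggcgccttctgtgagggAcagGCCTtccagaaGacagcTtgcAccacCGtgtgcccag
Unc5c exon 6: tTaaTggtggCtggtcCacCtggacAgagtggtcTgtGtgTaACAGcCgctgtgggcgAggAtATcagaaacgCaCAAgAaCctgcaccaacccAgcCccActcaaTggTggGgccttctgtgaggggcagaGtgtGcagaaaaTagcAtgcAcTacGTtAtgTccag
Unc5d exon 6: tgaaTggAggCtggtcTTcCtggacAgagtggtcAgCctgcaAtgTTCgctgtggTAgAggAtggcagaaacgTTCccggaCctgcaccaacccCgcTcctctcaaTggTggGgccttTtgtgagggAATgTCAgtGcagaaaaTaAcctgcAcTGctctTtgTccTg
Compared base by base without gaps, Unc5b and Unc5d each matched Unc5a at 126 of 168 positions (75.0%), and Unc5c matched it at 128 (76.2%). The differing bases were spread along the exon. Read in transcript orientation, no 100-base window of any of the 10 genes occurs letter for letter in another gene. On the opposite strand, 118 exonic bases of Unc5c overlap Gm15688 and 34 of Unc5a overlap Hk3.

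Unc5c carried a small cassette exon of its own, exon 8 of 17, at chr3:141786857-141786913 on the plus strand, which is coding and 57 bases long. It is shown in capitals between the last 20 bases of the exon before and the first 20 bases of the exon after. The reason is that no other internal coding segment separates the 2 leading full-length coding transcripts of Unc5c.
Unc5c exon 8: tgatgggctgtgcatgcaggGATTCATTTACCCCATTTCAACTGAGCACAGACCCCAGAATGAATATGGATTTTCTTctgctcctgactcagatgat
Unc5c-201 (3890 bases), which holds the exon, took 12.5% and 13.6% of Unc5c TPM on 99.1 and 130 counts, and Unc5c-202 (9298 bases), which lacks it, took 77.7% and 62.4%. Of the pair alone, the transcript with the exon held 13.9% and 17.9% (15.9% ± 2.8). The pair also differs at both ends, so these shares do not measure the exon by itself.

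Of the 5 leading transcripts, that of Dcc had the steadiest share. Dcc-202 (5219 bases) held 79.4% and 81.7% of Dcc TPM (80.5% ± 1.6), on 2325 and 2799 counts, and Dcc-201 (4855 bases) held 16.1% and 14.5%, on 437 and 461 counts. Among the segments that separate them is a coding stretch of 60 bases at an alternative splice site of exon 17 of 29 (chr18:71378828-71378887, minus strand). Splicing of Dcc in this region is known to be controlled by the Nova proteins. Of the pair, the transcript with the longer exon held 83.2% and 84.9% (84.1% ± 1.2); here too the ends differ as well.

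Between the pools, most of the 10 genes differed little. Ratios of replicate 2 to replicate 1 were taken from expected counts scaled by TMM, which sets the bulk of genes equal, and carry a 95% counting interval; with 1 library on each side there is no test. Only Ntn4 passed 1.5-fold, 1 of 10 genes, where 10.8% of 17219 genes with at least 10 counts in either library did, so this count was near the background. By direction, 4.87% of those genes were past 1.5-fold higher in replicate 2 and 5.94% lower. Its 37 and 65 counts gave a log2 ratio of 0.70 (interval 0.12 to 1.35), or 1.62-fold higher in replicate 2. By the ratio of TPM, in which the short transcript weighs more, Ntn4 was at 0.38 and no gene passed.

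The remaining ratios lay between -0.40 and 0.32 on the log2 scale. Ntn3 was the lowest, at -0.40 (interval -0.66 to -0.14). Unc5b, at 0.32 (0.035 to 0.606), was the next highest after Ntn4. Over 12352 genes with a mean of at least 100 counts, the 5th and 95th percentiles of the ratio were -0.271 and 0.276. The ratios of Ntn3 and Unc5b lay outside this range of most well-covered genes, but their counting intervals reached into it. Unc5d (0.27), Dcc (0.14), Unc5a (0.14), Draxin (0.086), Neo1 (0.043), Unc5c (-0.082) and Ntn1 (-0.17) lay within it. The interval of Dcc, 0.071 to 0.216, was above 0 and that of Ntn1, -0.321 to -0.019, below it, but these intervals cover counting error alone, and without molecular identifiers several reads can stem from 1 molecule.

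By this scaling 7 of the 10 genes were higher in replicate 2 and 3 were lower, namely Ntn1, Ntn3 and Unc5c. The split depends on the scaling: by TPM it was 8 and 2, with Unc5c at 0.22. Spike-in scaling alone shifted the median of all genes to 0.199 and gave 9 and 1, with Ntn1 at 0.031, Unc5c at 0.12 and Ntn3 lower at -0.20. That scaling adds nearly the same amount to every gene, so it changes signs and not the order of the genes.

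**Figure D3:**
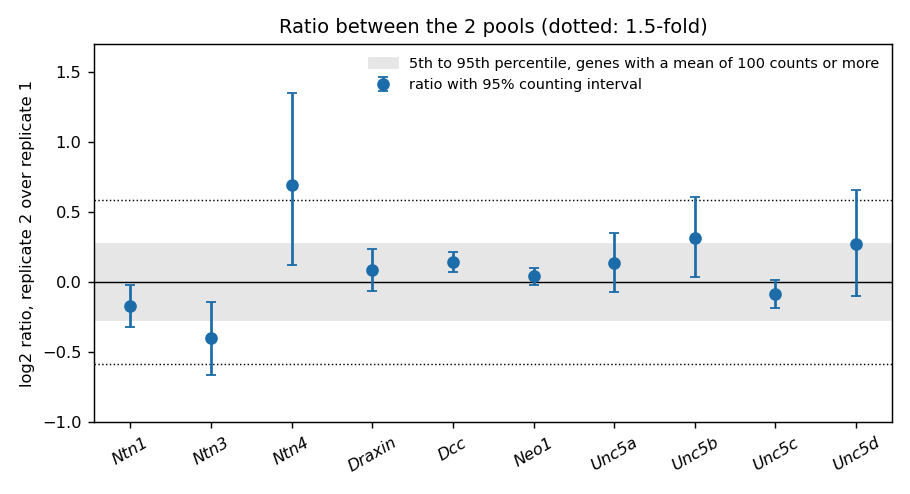
Log2 ratio of replicate 2 to replicate 1 for each of the 10 genes, from TMM-scaled expected counts, with bars for the 95% counting interval; the grey band spans the 5th to 95th percentile of genes with a mean of at least 100 counts, and dotted lines mark 1.5-fold. Ntn4 is the only point past a dotted line, and the points of Ntn3 and Unc5b lie outside the band, with bars that reach into it.

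Values of cell type markers for the same pools were as follows, beside 4.87% of all genes past 1.5-fold higher in replicate 2 and 5.94% lower. Postmitotic neuron markers were higher in replicate 2 for 6 of 6 genes (median log2 ratio 0.137, summed levels 1733 and 2018 TPM), and so were motor neuron markers (6 of 6, median 0.463, 151 and 202 TPM, 2 past 1.5-fold). Neural crest and sensory ganglion markers were higher for 5 of 6 (median 0.346, 87.2 and 113 TPM). Mesenchyme markers were lower for 6 of 6 (median -0.217, 619 and 555 TPM), as were skeletal muscle markers (median -0.323, 464 and 384 TPM, 1 past 1.5-fold). Floor plate markers, from a source of Ntn1, were lower for 4 of 5 (median -0.175), although their sum was higher through Spon1, and surface ectoderm markers were lower for 4 of 4 (median -0.134, 40.1 and 37.2 TPM). Roof plate markers were higher for 3 of 4 (median 0.214). Progenitor (0.042), commissural neuron (0.036), macrophage (0.013), erythroid (-0.025) and endothelial (-0.026) medians were near 0. No marker of these 13 lists was at 0 in either pool. Any gene with a ratio above 0 shares its sign with every list whose median is above 0. A shared sign alone therefore does not single out a cell type, and such matches were not tested. With TMM scaling, the counting intervals of Draxin, Neo1, Unc5a, Unc5c and Unc5d included 0, and those of Dcc, Ntn1, Ntn3, Ntn4 and Unc5b did not. The signs of Ntn1 and Unc5c also changed with spike-in scaling. The part of cell composition in the ratios of the netrin guidance genes was not tested.

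The wider pathway was present almost in full. Of 66 genes in 6 lists, 61 were detected, against 59.9% of protein-coding genes. Between the pools, 0 of the 65 with enough counts for a ratio passed 1.5-fold, where 10.8% of all genes with a ratio did. That share includes genes with few counts, whereas most pathway genes had more than 100. Over 12352 genes with a mean of at least 100 counts, the 5th and 95th log2 ratio percentiles, -0.271 and 0.276, also lay within 1.5-fold. The 0 is therefore not read as a trait of the pathway. The list of netrin relatives, which also holds the Unc5-like Unc5cl, was the least represented, with 2 of 4 detected and a median of 1.86 TPM. Ntng1 and Ntng2, membrane-anchored netrin-G proteins that bind other partners than Dcc, stood at 5.41 ± 0.27 and 2.74 ± 0.13 TPM. Unc5cl, an Unc5-like protein without the guidance receptor's outer domains, was the lowest at 0.25 ± 0.17 TPM. Ntn5, at 0.82 TPM in replicate 1 and 1.15 TPM in replicate 2, reached 1 TPM in replicate 2 alone.

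Other ligands of these receptors were all detected, 9 of 9, with a median of 20.3 TPM, above every ligand of the 10 genes. Gpc3, a glypican that binds Unc5 receptors, reached 412 ± 35 TPM, and Rgmb, a repulsive guidance molecule that binds Neo1, reached 79.2 ± 2.4 TPM. Cbln4, a cerebellin reported to bind Dcc, was the lowest at 2.445 ± 0.11 TPM. Co-receptors and receptor partners were detected for 10 of 13 genes, with a median of 17.3 TPM. Itgb1, the integrin beta subunit shared by many matrix receptors, and Ptprs, a receptor phosphatase, led at 155 ± 0.31 and 104 ± 2.7 TPM. Dscaml1, a relative of the netrin receptor Dscam, was the lowest at 0.445 ± 0.021 TPM, and Dscam itself (0.825 TPM) and Itgb4 (0.505 TPM) were not detected either. Robo3, which acts with Dcc in commissural axons before they cross the midline, stood at 69.6 ± 3.4 TPM, the highest of the commissural markers.

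**Figure D4:**
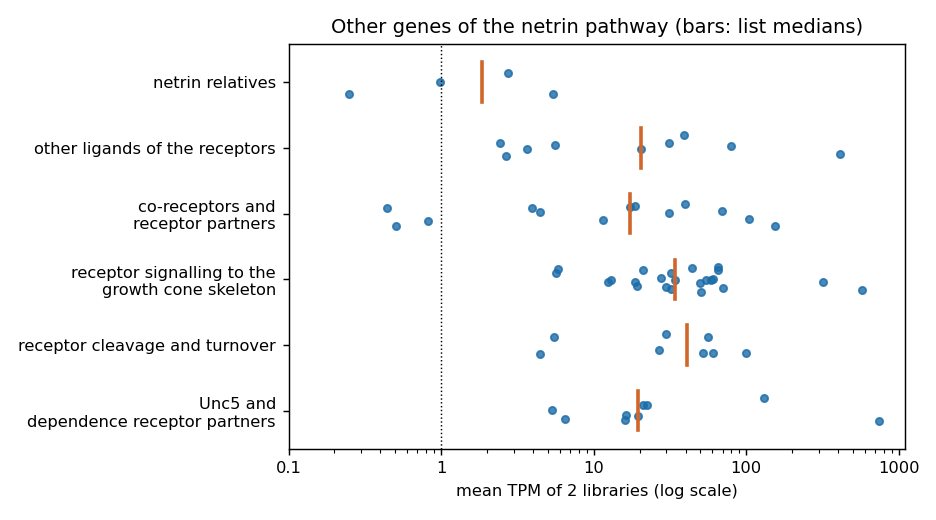
Mean TPM over the 2 libraries, on a log axis, of each gene in the 6 pathway lists, with 1 point per gene and a bar at the list median; the vertical spread of the points within a list has no meaning, and the dotted line marks 1 TPM. All signalling, cleavage and dependence receptor genes lie right of the line. The 5 genes left of it are in the list of netrin relatives, which also holds Unc5cl, or in that of co-receptors.

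Downstream components were detected without exception. All 23 genes that carry receptor signals to the growth cone skeleton were detected, with a median of 34.2 TPM, and the small GTPases Cdc42 and Rac1, which drive protrusion, were highest at 576 ± 5.3 and 316 ± 2.8 TPM. The lowest was Trim67, a ubiquitin ligase that binds Dcc, at 5.7 ± 0.33 TPM. All 8 genes of receptor cleavage and turnover were detected (median 41.0 TPM). Ncstn, a membrane protein of the protease complex that cleaves Dcc and Neo1 in the membrane, was highest at 100 ± 6.7 TPM, and the ubiquitin ligase Siah2 was the lowest at 4.445 ± 0.93 TPM. All 9 partners of Unc5 and of dependence receptor signalling were detected (median 19.4 TPM). Maged1, which binds the intracellular part of Unc5a, was highest at 741 ± 1.8 TPM. The Maged1 relative Magel2 was the lowest at 5.305 ± 0.91 TPM. Many of these downstream genes act in most cell types and in other pathways, so their presence is not specific to netrin signalling.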

How the data were processed

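The data were 2 total RNA-seq libraries of E11.5 neural tube. Expected counts per gene and transcript were deposited by the authors, made on mm10 with GENCODE M4 per the deposited file descriptions. TPM values, in which the spike-ins and numbered entries share the total, were also deposited, as was each transcript's percent of its gene. Neither the aligner, the quantifier nor the strandedness is given in the sources used here, and the labels' general protocol is SmartSeq under the title total RNA-seq. A second, posterior mean estimate deposited by the authors served as an alternative.

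Symbols and coordinates came from GENCODE M21 (GRCm38). By gene identifier, 42462 of 43346 genes matched, 9 of the 10 described among them; Ntn3, whose identifier changed, was matched by its transcript. Hjv was found under its older symbol. Spike-ins (97; 5.72% and 5.02% of counts) and the 26248 entries named by a number did not count as genes. TPM values were averaged over both libraries, and log2 ratios of levels were taken within each library. For ratios between libraries, expected counts were rounded and scaled by TMM in edgeR 4.0.16 (R 4.3.3; prior count 2; factors 0.9965 and 1.004; genes with 10 counts in at least 1 library), with exact Clopper-Pearson 95% counting intervals. DESeq2 1.42.0 gave alternative size factors, and TPM ratios used a pseudocount of 0.1. The ratio step was tested on simulated counts. Python 3.11.15, pandas 2.3.3, numpy 2.4.6 and matplotlib 3.10.9 did the rest.

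The 10 genes, the 6 pathway lists and the 13 marker lists were chosen with earlier results of these data known. Named were all 10 genes, the 2 highest and the lowest member of each pathway list, at most the highest of a marker list, and transcripts with at least 10% of their gene; some genes this rule names are not reported here. Ntn5, Dscam and Itgb4 were named after their values were seen. No comparison between groups could be made.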

Additional observations from a re-analysis of the deposited data

How the results depend on the processing

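Ntn4, the only ratio past 1.5-fold, kept its direction in every setting run, while those of Ntn1 (spike-ins) and Unc5c (spike-ins, TPM and TPM over long transcripts) changed sign. The restriction to transcripts of at least 1000 bases was chosen after the data were seen. It gave mean log2 ratios of levels of 0.925 for Ntn1 to Ntn3 plus Ntn4, -1.752 for the Unc5 sum to Dcc plus Neo1, 0.186 for Draxin to Ntn1 and 1.08 for Unc5c to Unc5a. Posterior mean TPM gave -1.541 and 1.156 for the second and the last of these. Leaving out either replicate, which with 2 libraries returns the value of the other, gave 0.939 to 0.99, -1.719 to -1.623, -0.21 to 0.091 and 1.2 to 1.231 for the same 4 ratios, and 0.037 to 0.133 for Dcc to Neo1. The number of genes past 1.5-fold between the pools was 1, and it was 0 by the ratio of TPM and 0 past 2-fold. Detection held for 10 genes at 0.5 TPM, 7 at 2 TPM and 8 over transcripts of at least 1000 bases, without Ntn4 in the last case. TPM over gene entries alone moved 6 of 10 levels by more than their spread. Values of Ntn4 are limited by its 37 and 65 counts, and transcript shares by the few counts of the short transcripts. No paired analysis was possible because the series holds 1 group.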

Other observations

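Start regions of the genes were rich in GC. RefSeq promoter windows on GRCm38.p6, each 300 bases long with 250 before and 50 after the start, were matched for 7 of the 10 genes, all but Ntn1, Dcc and Unc5d. Their GC content was 68.3% (Unc5c) to 82.7% (Neo1), where the median of 21263 protein-coding windows was 56.3%. The observed over expected ratio of CpG, the dinucleotide CG read once for both strands, was 1.054 in Neo1, 0.99 in Unc5b, 0.871 in Draxin, 0.839 in Ntn4, 0.816 in Unc5a, 0.685 in Unc5c and 0.455 in Ntn3. It passed 0.6 in 6 of 7 windows, where 47.6% of all windows did. Both high genes such as Neo1 and low genes such as Unc5b and Ntn4 were among the 6. These values describe sequence and were not tested against the levels.

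Gene size did not order the levels of the 10 genes. Dcc, the highest, spans 1097 kb and Unc5d, the lowest, spans 572.9 kb, the largest spans of the set, while Ntn3, the smallest at 5.684 kb, lay between them at 2.965 TPM. The 10 genes lie on 9 chromosomes, 7 of them on the minus strand, and Ntn4 and Unc5b share chromosome 10.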
